A study of Mus musculus with 14 samples.

Results

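Immediate early genes and genes of the cellular stress response, 43 in all, were followed on the 14 arrays of a study of mouse prostate stem cells. They were chosen by name, with no use of a threshold on their values but with earlier results of these data known. They are 43 of 17136 genes tested. Each gene is represented by whichever of its probe sets has the highest log2 signal averaged over the arrays, and all 43 passed the signal minimum of 20 on at least 1 array. The arrays fall into 3 of the urogenital sinus epithelium (UGE) of C57BL/6 embryos at embryonic day 16, whose sex the labels do not give, and 11 of adult male mice, C57BL and 6 to 8 weeks old by the labels and C57BL/6 at the lower end of that age by the study's methods: 3 of Sca-1Hi cells, 4 of Sca-1Lo cells and 4 of Sca-1Neg cells. In the study UGE stands for fetal stem cells, and adult cells were sorted by surface Sca-1 into stem (Sca-1Hi), transit-amplifying (Sca-1Lo) and the most differentiated (Sca-1Neg) fractions. The mice carried no transgene and received no treatment that the labels name. By the study's methods the adult cells came from the proximal ducts, were released by digestion and passed through a sorter before lysis, whereas UGE was dissected and put into TRIzol with no sort named. The sample labels write of sorted cells for UGE too. Age, tissue and the way the cells were prepared thus change together between UGE and adult samples and cannot be told apart.

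Immediate early genes are switched on within minutes of a stimulus, without new protein synthesis, by factors that already sit in the cell, such as CREB and the serum response factor. Many encode transcription factors (Fos and Jun, which pair as AP-1, and the Egr, Nr4a and Klf families), and others encode proteins that shut the signal off again, such as the phosphatase Dusp1 and the mRNA-decay factor Zfp36. Heat shock genes are driven by the heat shock factor. In many tissues both groups are known to be induced when cells are dissociated with enzymes and sorted.

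Of the 43 genes, 38 have a promoter in the RefSeq table for mouse build GRCm38.p6. The 5-base core of the cyclic AMP response element, TGACG, was found on either strand in the 250 bases before a start in 21 of the 38 genes (55.3%) and in 19.8% of all 27025 genes in the table. The complete element, TGACGTCA, which contains the core, was found in 4 of 38 (10.5%) against 1.77% of all genes. These promoters were richer in G and C, with a median of 64.6% against 52.4% over all genes, and the shares are not corrected for it. The heat shock element GAANNTTC was present in 6 of 38 (15.8%, against 7.73%), the TATA motif TATAAA in 6 of 38 (15.8%, against 14.3%), the CArG box of the serum response factor in 3 of 38 (7.89%, against 1.62%) and the AP-1 motif TGANTCA in 0 of 38 (against 7.82%). Below are the 150 bases before the start of 4 genes that lay far lower in UGE, of the near-identical pair Hspa1a and Hspa1b, and of Fosl2, which lay higher in UGE. Capitals mark TGACG on either strand, GAANNTTC and TATAAA.
Fos (chr12:85473740-85473889, plus strand): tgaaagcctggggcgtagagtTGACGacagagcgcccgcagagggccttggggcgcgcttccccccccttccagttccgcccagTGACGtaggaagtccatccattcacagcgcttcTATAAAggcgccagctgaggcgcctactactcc
Atf3 (chr1:191183334-191183483, minus strand): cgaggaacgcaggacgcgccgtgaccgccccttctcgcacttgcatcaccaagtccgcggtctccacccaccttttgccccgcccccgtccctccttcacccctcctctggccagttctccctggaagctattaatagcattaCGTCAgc
Nr4a1 (chr15:101266696-101266845, plus strand): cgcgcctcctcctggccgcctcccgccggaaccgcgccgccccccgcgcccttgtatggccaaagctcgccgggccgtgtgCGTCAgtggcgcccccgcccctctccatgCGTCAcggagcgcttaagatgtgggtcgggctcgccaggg
Dusp1 (chr17:26508473-26508622, minus strand): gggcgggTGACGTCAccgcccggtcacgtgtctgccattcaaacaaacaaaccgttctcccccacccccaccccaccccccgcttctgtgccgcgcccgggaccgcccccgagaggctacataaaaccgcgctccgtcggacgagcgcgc
Hspa1a (chr17:34972157-34972306, minus strand): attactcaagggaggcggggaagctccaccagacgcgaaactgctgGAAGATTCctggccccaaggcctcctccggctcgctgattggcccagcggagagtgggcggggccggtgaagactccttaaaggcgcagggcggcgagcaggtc
Hspa1b (chr17:34959239-34959388, minus strand): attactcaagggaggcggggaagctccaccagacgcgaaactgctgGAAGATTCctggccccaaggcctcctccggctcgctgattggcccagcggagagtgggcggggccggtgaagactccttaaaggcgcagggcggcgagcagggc
Fosl2 (chr5:32136322-32136471, plus strand): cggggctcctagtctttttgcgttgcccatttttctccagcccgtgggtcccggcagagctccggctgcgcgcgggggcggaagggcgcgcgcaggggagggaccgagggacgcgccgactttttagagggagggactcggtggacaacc

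In these stretches Fos has 2 core elements and a TATA motif, Atf3 has 1 core element close to its start, and Nr4a1 has 2. The mark in Dusp1 is the complete element, and Hspa1a and Hspa1b each hold 1 heat shock element. Hspa1a and Hspa1b are identical at 149 of 150 bases, and their transcripts are close copies, so that the signals of their probe sets are uncertain as measures of either gene alone. The Fosl2 stretch holds none of the 3 motifs, which says only that these letters are not in this window. In the longer window used for the shares above, Fosl2 was among the 6 genes with a heat shock element.

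The median signal per array ran from 80.7 to 99.7. The log2 ratio of the 3' to the 5' control probe sets of Gapdh, which grows as RNA is less complete, was 1.83 to 2.38 in UGE, 3.07 to 3.48 in Sca-1Hi, 1.98 to 3.22 in Sca-1Lo and 1.66 to 2.75 in Sca-1Neg. The same ratio of Actb did not set Sca-1Hi apart and overlapped between all populations, with 1.54 to 2.09 in UGE, 1.59 to 2.77 in Sca-1Hi, 1.72 to 2.27 in Sca-1Lo and 1.17 to 2.11 in Sca-1Neg. The populations also differ in markers of other cells. The summed signal of 10 endothelial genes was 197 to 740 in UGE, with Pecam1 and Tie1 at or below 20 on every array, against 11242 to 20078 in Sca-1Hi, 5481 to 12704 in Sca-1Lo and 1232 to 4041 in Sca-1Neg. That of 12 leukocyte genes was 1632 to 2605 in UGE, 580 to 795 in Sca-1Hi, with Ptprc, Cx3cr1 and Cd53 at or below 20 on every array, 964 to 1894 in Sca-1Lo and 1374 to 47678 in Sca-1Neg. That of 8 smooth muscle and pericyte genes was 3350 to 4594 in UGE, against 8324 to 24021 in Sca-1Hi, 13286 to 25623 in Sca-1Lo and 27547 to 88784 in Sca-1Neg. The summed signal of 6 basal epithelial genes was 21716 to 28406 in UGE and 17992 to 27827 in Sca-1Hi. In Sca-1Lo it was 8772 to 27667 and in Sca-1Neg 1770 to 8022. Of 6 luminal secretory genes measured, the prostate secretory genes Pbsn and Svs2 were at or below 20 on all UGE arrays. Of the 6, 4 were called lower in UGE than in each adult population, and 1 was called higher in UGE than in Sca-1Neg. The gene of Sca-1 itself was not analysed here. Endothelial cells, leukocytes and muscle can all carry immediate early transcripts, and their part in the results below was not tested. In such samples fewer cells of a type and less RNA per cell cannot be told apart.

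Most of these genes were far lower in UGE than in any adult population. A gene is called higher or lower here when the adjusted p (limma, Benjamini-Hochberg over all probe sets tested) is under 0.05 and the difference exceeds 0.81 log2 units. Against Sca-1Neg, 24 of the 43 genes (55.8%) were lower in UGE and 1 was higher, where 12.8% of all genes tested were called lower and 16.3% higher. Against Sca-1Hi, 33 (76.7%) were lower and 2 higher, against 12.0% and 15.8% of all genes. Against Sca-1Lo, 31 (72.1%) were lower and 2 higher, against 12.1% and 13.4% of all genes. The median log2 difference of the 43 genes was -1.69 against Sca-1Neg, -2.55 against Sca-1Hi and -2.45 against Sca-1Lo, beside 0.07, -0.00018 and -0.04 over all genes tested. These 3 comparisons share the UGE arrays and are not independent. With each array centred on its 75th percentile, 26, 35 and 36 of the 43 genes were lower than in Sca-1Neg, Sca-1Hi and Sca-1Lo, while over all genes the split turned to 2252 higher and 2764 lower against Sca-1Neg (2788 and 2200 without it), 2417 and 2579 against Sca-1Hi (2707 and 2056) and 1921 and 2671 against Sca-1Lo (2296 and 2082).

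**Figure D1:**
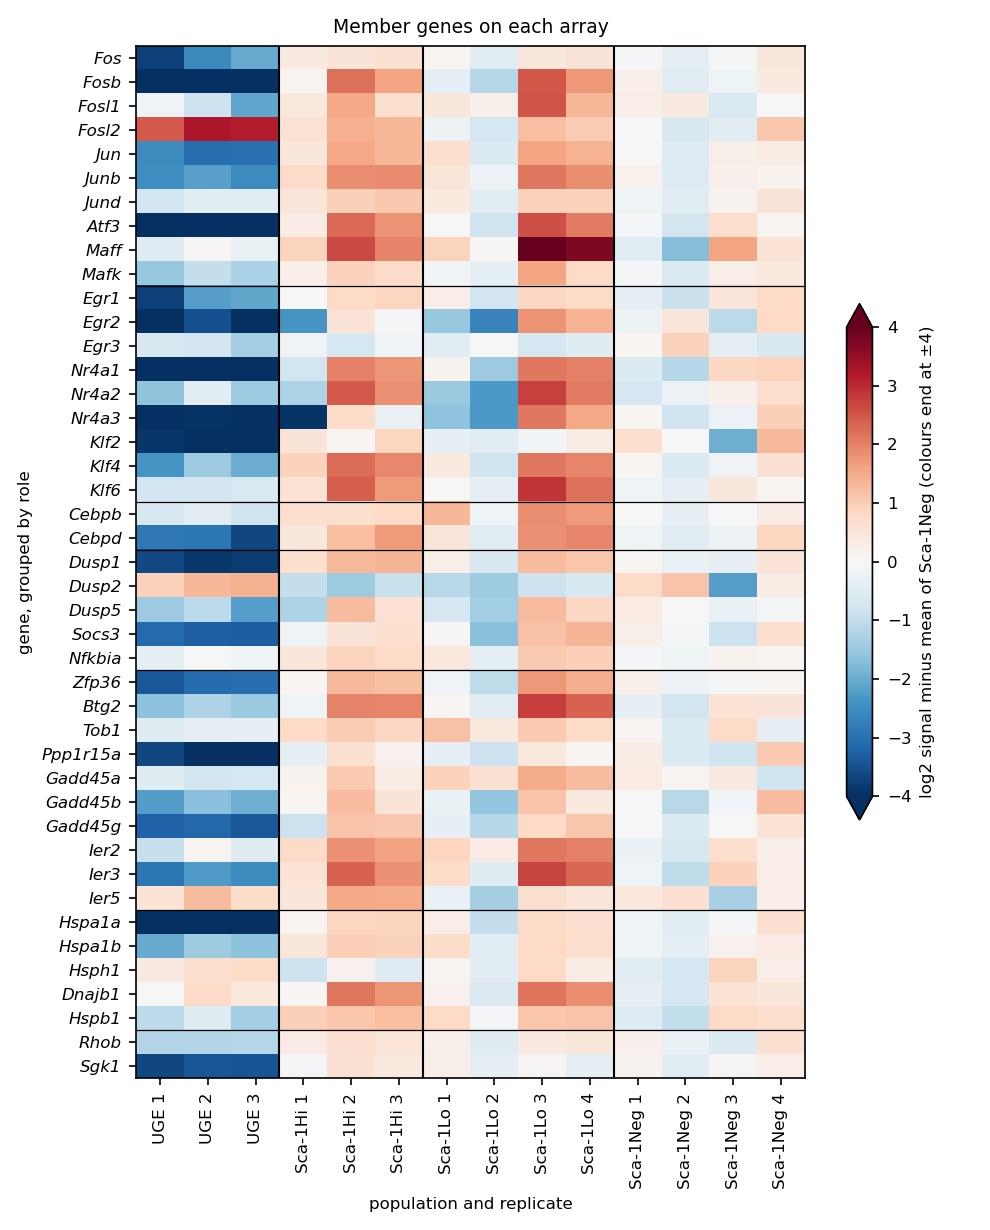
Log2 signal of each of the 43 genes (rows, grouped by role with lines between roles) on each of the 14 arrays (columns), minus the gene's mean over the 4 Sca-1Neg arrays, with the colour scale ending at 4 log2 units on either side. The 3 UGE columns are blue for most genes, Fosl2 is red there, and Sca-1Hi replicates 2 and 3 and Sca-1Lo replicates 3 and 4 are red for most genes.

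All 3 UGE arrays lay below all 11 adult arrays for 27 of the 43 genes, as 9.83% of all genes tested did, and above all of them for 1 gene, Fosl2, as 14.1% of all genes did. Against the 4 Sca-1Neg arrays alone, the UGE arrays lay below for 29 genes, where 15.8% of all genes did. Altogether 35 genes were called in at least 1 comparison, and 8 in none: Maff, Egr3, Nr4a2, Dusp5, Nfkbia, Ier5, Hsph1 and Dnajb1. In the values that follow, signals are given in the order of the replicate numbers, and differences are UGE minus the named adult population in log2 units ± standard error.

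Of the 7 Fos and Jun genes, Fos, Fosb, Jun and Junb were lower in UGE than in every adult population, Fosl1 and Jund only against some of them, and Fosl2 was higher. Fos had signals of 548, 1230 and 1782 in UGE, 9274, 10310 and 11064 in Sca-1Hi, 7828, 5298, 9955 and 10484 in Sca-1Lo, and 7014, 5712, 7034 and 9977 in Sca-1Neg. The highest UGE array stayed below the lowest adult array, and UGE replicate 1 was the lowest of all. Fos differed by -2.78 ± 0.37 against Sca-1Neg (adjusted p = 0.000118), -3.26 ± 0.40 against Sca-1Hi (adjusted p = 5.78e-05) and -2.93 ± 0.37 against Sca-1Lo (adjusted p = 7.65e-05). Fosb, a close relative of Fos, had signals of 5.78, 9.96 and 8 in UGE, 578, 2467 and 1608 in Sca-1Hi, 411, 246, 3015 and 1794 in Sca-1Lo, and 615, 398, 479 and 709 in Sca-1Neg. Every UGE array lay below the signal minimum of 20, so its change is a bound: with UGE set to 20, Fosb was at least 26.84-fold lower than in Sca-1Neg, 65.91-fold lower than in Sca-1Hi and 42.98-fold lower than in Sca-1Lo. Fosb differed, without that bound, by -6.12 ± 0.73 against Sca-1Neg (adjusted p = 4.82e-05), -7.42 ± 0.78 against Sca-1Hi (adjusted p = 1.85e-05) and -6.80 ± 0.73 against Sca-1Lo (adjusted p = 1.98e-05). Jun, the main partner of Fos, had signals of 682, 479 and 489 in UGE, 5329, 11373 and 9727 in Sca-1Hi, 6185, 2616, 11665 and 10099 in Sca-1Lo, and 3797, 2707, 4598 and 4778 in Sca-1Neg. All UGE arrays lay far below the lowest adult array, Sca-1Lo replicate 2, while another Jun probe set was called against Sca-1Hi and Sca-1Lo but not against Sca-1Neg (-1.28). Jun differed by -2.84 ± 0.45 against Sca-1Neg (adjusted p = 0.000493), -3.95 ± 0.49 against Sca-1Hi (adjusted p = 6.34e-05) and -3.61 ± 0.45 against Sca-1Lo (adjusted p = 7.39e-05). Junb, the Jun relative that tempers Jun, had signals of 298, 377 and 285 in UGE, 2845, 6097 and 6201 in Sca-1Hi, 2354, 1430, 7197 and 6104 in Sca-1Lo, and 1896, 1183, 1924 and 1850 in Sca-1Neg. No UGE array reached the lowest adult array. Junb differed by -2.40 ± 0.49 against Sca-1Neg (adjusted p = 0.00284), -3.90 ± 0.53 against Sca-1Hi (adjusted p = 0.00014) and -3.46 ± 0.49 against Sca-1Lo (adjusted p = 0.000217).

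Fosl1, another Fos relative, was weak on all arrays, with signals of 26.9, 16.6 and 7.09 in UGE, 39.4, 87 and 46.1 in Sca-1Hi, 41.1, 34.4, 170 and 74.2 in Sca-1Lo, and 35.7, 38.5, 19.4 and 29.3 in Sca-1Neg. UGE overlapped Sca-1Neg and lay below Sca-1Hi and Sca-1Lo. Fosl1 differed by -1.88 ± 0.59 against Sca-1Hi (adjusted p = 0.0313) and -2.15 ± 0.55 against Sca-1Lo (adjusted p = 0.0128). Jund, the Jun gene that is present in most resting cells, had signals of 2178, 2733 and 2736 in UGE, 5112, 7197 and 7819 in Sca-1Hi, 4864, 2759, 6988 and 7011 in Sca-1Lo, and 3239, 2664, 4043 and 5288 in Sca-1Neg. UGE overlapped Sca-1Neg, and only the difference from Sca-1Hi was called. Jund differed by -1.38 ± 0.37 against Sca-1Hi (adjusted p = 0.0137). Fosl2 went the other way, with signals of 2917, 4947 and 4669 in UGE, 797, 1437 and 1337 in Sca-1Hi, 465, 329, 1225 and 1064 in Sca-1Lo, and 528, 344, 394 and 1114 in Sca-1Neg. The lowest UGE array exceeded the highest adult array. Fosl2 differed by 2.94 ± 0.50 against Sca-1Neg (adjusted p = 0.000736), 1.82 ± 0.53 against Sca-1Hi (adjusted p = 0.0217) and 2.61 ± 0.50 against Sca-1Lo (adjusted p = 0.00193). Another Fosl2 probe set, at 68.8 to 72.6 in UGE and 59.7 to 122 over the adult arrays, was called in no comparison, so that the rise rests on the probe set with the higher signal.

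**Figure D2:**
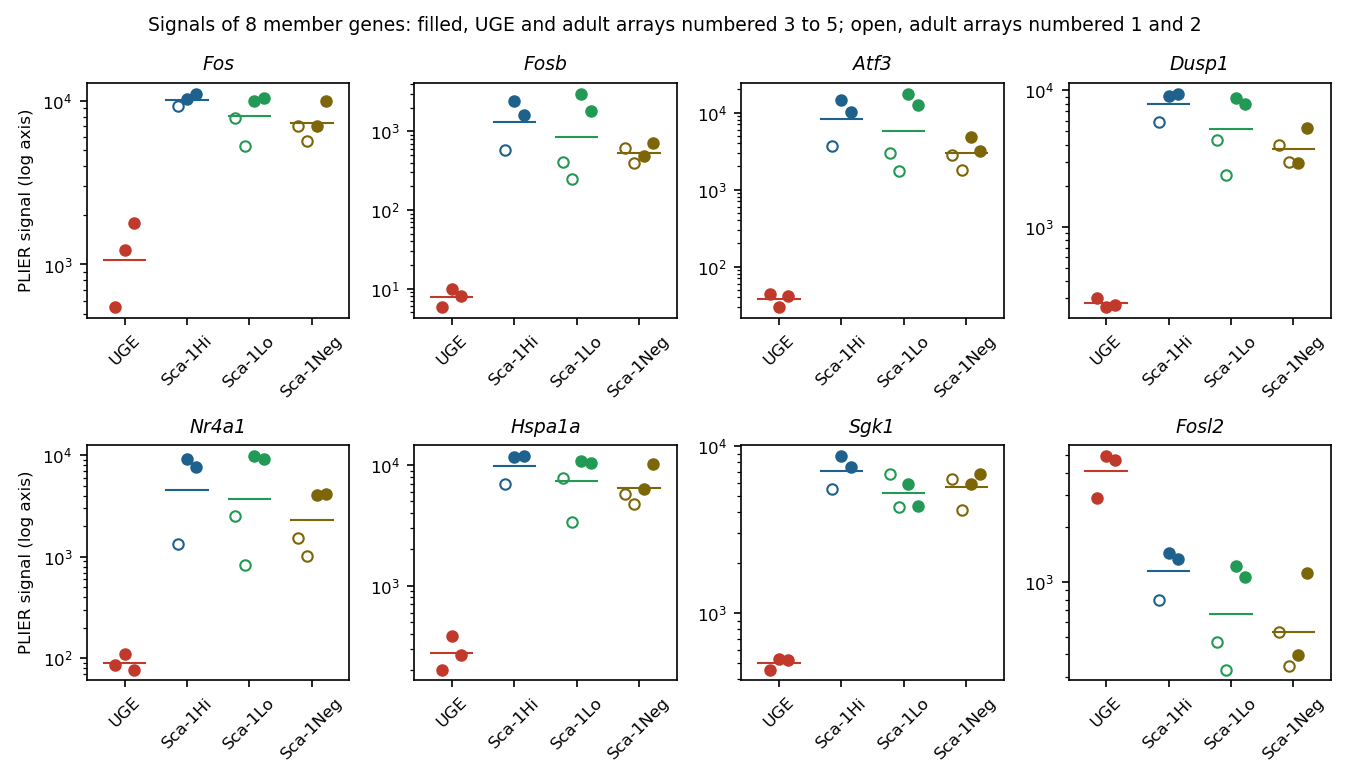
Signal on a log axis of 8 genes on each array (points), with the mean of the log2 signals of a population as a bar. Filled points are UGE arrays and adult arrays numbered 3 to 5 in the study, and open points are adult arrays numbered 1 and 2. UGE lies below all adult arrays for 7 genes and above them for Fosl2, and the open points lie low in most panels but not for Sgk1.

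Among the 3 other bZIP genes counted with AP-1, Atf3 was among the genes with the most negative differences, beside Fosb. Atf3, a repressor induced by many stresses, had signals of 44.6, 29.5 and 41.4 in UGE, 3641, 14457 and 10295 in Sca-1Hi, 2980, 1724, 17601 and 12561 in Sca-1Lo, and 2808, 1803, 4862 and 3182 in Sca-1Neg. UGE was far below every adult array, and Sca-1Hi replicates 2 and 3 and Sca-1Lo replicates 3 and 4 stood above the other adult arrays. Atf3 differed by -6.29 ± 0.71 against Sca-1Neg (adjusted p = 3.12e-05), -7.75 ± 0.76 against Sca-1Hi (adjusted p = 1.05e-05) and -7.26 ± 0.71 against Sca-1Lo (adjusted p = 9.47e-06). Mafk, a small Maf protein that pairs with larger bZIP factors, had signals of 141, 205 and 168 in UGE, 459, 754 and 685 in Sca-1Hi, 371, 310, 1200 and 694 in Sca-1Lo, and 387, 268, 467 and 528 in Sca-1Neg. UGE lay below every adult array by a narrow margin. Mafk differed by -1.24 ± 0.42 against Sca-1Neg (adjusted p = 0.0417), -1.87 ± 0.45 against Sca-1Hi (adjusted p = 0.00743) and -1.72 ± 0.42 against Sca-1Lo (adjusted p = 0.00933). Maff, the other small Maf gene, ran from 50.8 to 74.7 in UGE, 134 to 452 in Sca-1Hi, 74.1 to 1274 in Sca-1Lo and 22.2 to 214 in Sca-1Neg, and no difference was called.

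The zinc finger and nuclear receptor genes followed the same direction, with 6 of 9 lower than Sca-1Neg, 7 lower than Sca-1Hi and 6 lower than Sca-1Lo. Egr1, a serum-induced zinc finger factor, had signals of 434, 1251 and 1379 in UGE, 5726, 10123 and 10489 in Sca-1Hi, 6979, 3388, 10222 and 9821 in Sca-1Lo, and 4381, 3151, 8142 and 10017 in Sca-1Neg. UGE lay below all adult arrays, again with replicate 1 lowest. Egr1 differed by -2.67 ± 0.52 against Sca-1Neg (adjusted p = 0.00201), -3.22 ± 0.56 against Sca-1Hi (adjusted p = 0.000917) and -2.94 ± 0.52 against Sca-1Lo (adjusted p = 0.00115). Egr2, its relative, had signals of 16.2, 30.9 and 18.4 in UGE, 68.4, 500 and 336 in Sca-1Hi, 122, 54.9, 1235 and 916 in Sca-1Lo, and 304, 496, 167 and 612 in Sca-1Neg. UGE was near the signal minimum, and the adult arrays spread widely, with Sca-1Lo replicate 2 lowest and Sca-1Lo replicate 3 highest. Egr2 differed by -4.07 ± 0.98 against Sca-1Neg (adjusted p = 0.00739), -3.43 ± 1.04 against Sca-1Hi (adjusted p = 0.0269) and -3.82 ± 0.98 against Sca-1Lo (adjusted p = 0.0123). Egr3 ran from 39.5 to 65.9 in UGE, 63.5 to 95.4 in Sca-1Hi, 63.4 to 102 in Sca-1Lo and 66.1 to 194 in Sca-1Neg and was not called. Another Egr3 probe set, below the signal minimum in UGE (3.36 to 6.28) and 32.9 to 352 over the adult arrays, was called lower in UGE in all 3 comparisons.

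Nr4a1, an orphan nuclear receptor induced by growth factors, had signals of 85.7, 111 and 77.7 in UGE, 1337, 9205 and 7728 in Sca-1Hi, 2515, 824, 9831 and 9220 in Sca-1Lo, and 1545, 1028, 4032 and 4195 in Sca-1Neg. No UGE array came near the lowest adult array, Sca-1Lo replicate 2. Nr4a1 differed by -4.65 ± 0.86 against Sca-1Neg (adjusted p = 0.00143), -5.66 ± 0.92 against Sca-1Hi (adjusted p = 0.000592) and -5.35 ± 0.86 against Sca-1Lo (adjusted p = 0.000564). Nr4a3, a further member of the family, had signals of 4.55, 32.1 and 6.68 in UGE, 32.7, 828 and 410 in Sca-1Hi, 163, 102, 2164 and 1440 in Sca-1Lo, and 529, 283, 422 and 965 in Sca-1Neg. UGE replicate 2 at 32.1 was only just below Sca-1Hi replicate 1 at 32.7, and a different Nr4a3 probe set was called higher in UGE against Sca-1Neg (1.60) and Sca-1Lo (1.27), the opposite way. Nr4a3 differed by -5.65 ± 1.20 against Sca-1Neg (adjusted p = 0.00344), -4.49 ± 1.28 against Sca-1Hi (adjusted p = 0.0193) and -5.59 ± 1.20 against Sca-1Lo (adjusted p = 0.00422). Nr4a2 ran from 110 to 249 in UGE, 144 to 1839 in Sca-1Hi, 68.8 to 2257 in Sca-1Lo and 211 to 555 in Sca-1Neg, overlapped everywhere and was not called, though 1 of its other probe sets, of low signal, was called lower in UGE against Sca-1Neg (-1.60).

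Klf2, a Kruppel-like factor known from endothelial and T cells, had signals of 72.6, 34.1 and 28 in UGE, 1532, 1137 and 1944 in Sca-1Hi, 855, 792, 1003 and 1330 in Sca-1Lo, and 1669, 1073, 278 and 2664 in Sca-1Neg. All adult arrays lay above UGE, and Sca-1Neg, from its replicate 3 to its replicate 4, spread more widely than the other populations. Klf2 differed by -4.71 ± 0.60 against Sca-1Neg (adjusted p = 7.73e-05), -5.19 ± 0.64 against Sca-1Hi (adjusted p = 6.33e-05) and -4.57 ± 0.60 against Sca-1Lo (adjusted p = 0.0001). Klf4, a factor of epithelial differentiation, had signals of 330, 611 and 431 in UGE, 3195, 7866 and 6455 in Sca-1Hi, 2234, 977, 7327 and 6527 in Sca-1Lo, and 1779, 1148, 1534 and 2601 in Sca-1Neg. UGE lay below the lowest adult array, Sca-1Lo replicate 2. Klf4 differed by -1.93 ± 0.60 against Sca-1Neg (adjusted p = 0.0291), -3.62 ± 0.64 against Sca-1Hi (adjusted p = 0.00111) and -2.85 ± 0.60 against Sca-1Lo (adjusted p = 0.00383). Klf6, a broadly expressed Klf factor, had signals of 716, 742 and 798 in UGE, 1828, 6433 and 4030 in Sca-1Hi, 1237, 962, 8901 and 5682 in Sca-1Lo, and 1086, 968, 1671 and 1298 in Sca-1Neg. The UGE arrays were tightly grouped below the adults, and the difference was called against Sca-1Hi alone, while 3 of the 4 other Klf6 probe sets were also called lower against Sca-1Lo (-3.12, -1.98 and -1.67). Klf6 differed by -2.27 ± 0.71 against Sca-1Hi (adjusted p = 0.0308).

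Both C/EBP genes lay below all adult arrays in UGE. Cebpb, a bZIP factor of inflammation and differentiation, had signals of 230, 264 and 205 in UGE, 568, 561 and 626 in Sca-1Hi, 904, 322, 1292 and 1174 in Sca-1Lo, and 353, 286, 367 and 449 in Sca-1Neg. The margin over the lowest adult array, Sca-1Neg replicate 2, was small, and Sca-1Neg was not called. Cebpb differed by -1.33 ± 0.42 against Sca-1Hi (adjusted p = 0.0305) and -1.81 ± 0.39 against Sca-1Lo (adjusted p = 0.00434). Cebpd, its acute-phase relative, had signals of 93.8, 92.9 and 54.8 in UGE, 934, 1580 and 2255 in Sca-1Hi, 954, 500, 2419 and 2676 in Sca-1Lo, and 608, 502, 591 and 1237 in Sca-1Neg. The lowest adult arrays, Sca-1Lo replicate 2 and Sca-1Neg replicate 2, were still far above UGE. Cebpd differed by -3.14 ± 0.54 against Sca-1Neg (adjusted p = 0.000884), -4.26 ± 0.58 against Sca-1Hi (adjusted p = 0.000149) and -4.08 ± 0.54 against Sca-1Lo (adjusted p = 0.000119).

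The 5 inhibitors of signalling split. Dusp1, the phosphatase that inactivates p38 and JNK, had signals of 301, 256 and 267 in UGE, 5869, 9028 and 9455 in Sca-1Hi, 4315, 2375, 8768 and 7979 in Sca-1Lo, and 3998, 2992, 2908 and 5291 in Sca-1Neg. The UGE arrays were close to each other, and the lowest adult array was Sca-1Lo replicate 2. Dusp1 differed by -3.75 ± 0.41 against Sca-1Neg (adjusted p = 2.12e-05), -4.86 ± 0.43 against Sca-1Hi (adjusted p = 4.79e-06) and -4.24 ± 0.41 against Sca-1Lo (adjusted p = 7.47e-06). Socs3, the inhibitor of cytokine signalling through STAT3, had signals of 138, 123 and 120 in UGE, 1045, 1686 and 1856 in Sca-1Hi, 1229, 370, 2688 and 3005 in Sca-1Lo, and 1401, 1140, 645 and 1884 in Sca-1Neg. Here too Sca-1Lo replicate 2 was the lowest adult array. Socs3 differed by -3.22 ± 0.59 against Sca-1Neg (adjusted p = 0.00137), -3.55 ± 0.63 against Sca-1Hi (adjusted p = 0.00115) and -3.45 ± 0.59 against Sca-1Lo (adjusted p = 0.000923). Dusp2, a nuclear phosphatase known from activated lymphocytes, was higher in UGE than in Sca-1Hi and Sca-1Lo, with signals of 130, 170 and 183 in UGE, 35.2, 25.4 and 37 in Sca-1Hi, 31.4, 25.3, 38.7 and 44.1 in Sca-1Lo, and 116, 152, 14.9 and 83.8 in Sca-1Neg. UGE overlapped Sca-1Neg, in which replicates 1 and 2 were high, as was their summed leukocyte signal (21145 and 47678, against 1374 and 7405 on replicates 3 and 4). The part of leukocytes in this was not tested. Dusp2 differed by 2.31 ± 0.63 against Sca-1Hi (adjusted p = 0.016) and 2.22 ± 0.59 against Sca-1Lo (adjusted p = 0.0153). Dusp5 ran from 13.6 to 30.4 in UGE and 24.1 to 151 over the adult arrays, and Nfkbia, the inhibitor of NF-kB, from 3427 to 4441 in UGE and 3367 to 9143 over the adult arrays. Neither was called.

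**Figure D3:**
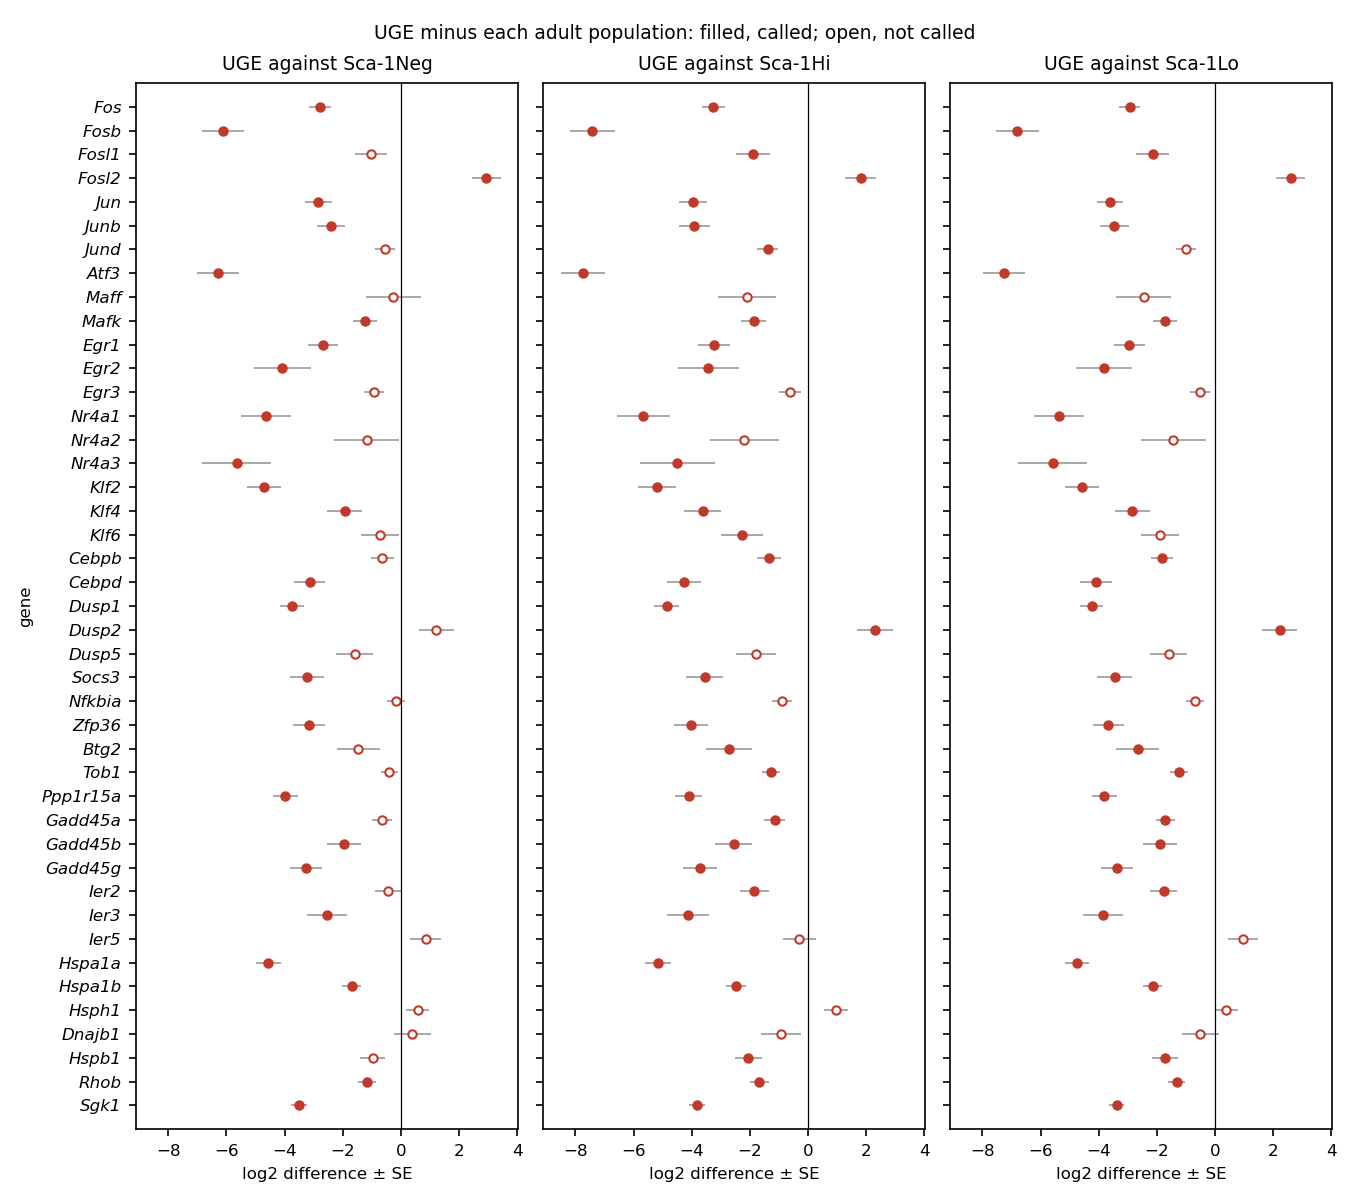
Log2 difference of UGE from Sca-1Neg, Sca-1Hi and Sca-1Lo (panels) for each of the 43 genes, with bars of 1 standard error, filled where the gene was called. Most points lie left of 0, and those of Fosl2, Dusp2 and Hsph1 lie right of it in all 3 panels, Hsph1 with open points.

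Of 10 regulators of mRNA, translation and growth, 5 were lower than in Sca-1Neg and 9 lower than in Sca-1Hi and in Sca-1Lo. Zfp36, which speeds the decay of mRNAs with AU-rich elements, had signals of 210, 261 and 272 in UGE, 2299, 5440 and 5082 in Sca-1Hi, 2007, 1080, 7299 and 5995 in Sca-1Lo, and 2548, 1882, 2102 and 2289 in Sca-1Neg. All UGE arrays were below all adult arrays, of which Sca-1Lo replicate 2 was lowest. Zfp36 differed by -3.16 ± 0.55 against Sca-1Neg (adjusted p = 0.000883), -4.02 ± 0.58 against Sca-1Hi (adjusted p = 0.000245) and -3.66 ± 0.55 against Sca-1Lo (adjusted p = 0.000308). Ppp1r15a, the phosphatase subunit that restores translation after stress, had signals of 108, 81.3 and 74 in UGE, 1033, 2080 and 1528 in Sca-1Hi, 1079, 767, 1817 and 1435 in Sca-1Lo, and 1666, 936, 785 and 2795 in Sca-1Neg. UGE was far below every adult array, and the 3 adult populations overlapped. Ppp1r15a differed by -3.97 ± 0.43 against Sca-1Neg (adjusted p = 2.21e-05), -4.10 ± 0.46 against Sca-1Hi (adjusted p = 3.07e-05) and -3.81 ± 0.43 against Sca-1Lo (adjusted p = 3.04e-05). Btg2, an antiproliferative gene, had signals of 422, 553 and 463 in UGE, 1152, 5175 and 5026 in Sca-1Hi, 1373, 965, 8834 and 6762 in Sca-1Lo, and 1053, 786, 1911 and 1858 in Sca-1Neg. UGE lay below every adult array but was not called against Sca-1Neg, whereas another Btg2 probe set of nearly equal signal was called lower in all 3 comparisons (-2.42 against Sca-1Neg). Btg2 differed by -2.71 ± 0.79 against Sca-1Hi (adjusted p = 0.022) and -2.65 ± 0.74 against Sca-1Lo (adjusted p = 0.0197). Tob1, of the same family as Btg2, had signals of 965, 1056 and 1090 in UGE, 2335, 2732 and 2427 in Sca-1Hi, 3034, 1785, 2794 and 2331 in Sca-1Lo, and 1461, 922, 2325 and 1086 in Sca-1Neg. UGE overlapped Sca-1Neg and lay below the rest. Tob1 differed by -1.27 ± 0.32 against Sca-1Hi (adjusted p = 0.011) and -1.23 ± 0.30 against Sca-1Lo (adjusted p = 0.00971).

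The 3 Gadd45 genes encode small stress proteins that bind cell cycle and MAP kinase regulators. Gadd45a had signals of 41.4, 34.4 and 35 in UGE, 63.1, 119 and 71.4 in Sca-1Hi, 110, 86.9, 161 and 137 in Sca-1Lo, and 72.9, 61.9, 73.9 and 32.9 in Sca-1Neg. UGE overlapped Sca-1Neg through its replicate 4. Gadd45a differed by -1.14 ± 0.36 against Sca-1Hi (adjusted p = 0.0304) and -1.71 ± 0.33 against Sca-1Lo (adjusted p = 0.00228). Gadd45b had signals of 142, 208 and 175 in UGE, 690, 1583 and 955 in Sca-1Hi, 563, 230, 1492 and 876 in Sca-1Lo, and 668, 309, 616 and 1585 in Sca-1Neg. Its adult spread was wide in every population, and UGE came close to Sca-1Lo replicate 2. Gadd45b differed by -1.96 ± 0.60 against Sca-1Neg (adjusted p = 0.0264), -2.55 ± 0.64 against Sca-1Hi (adjusted p = 0.00956) and -1.89 ± 0.60 against Sca-1Lo (adjusted p = 0.0346). Gadd45g had signals of 170, 179 and 152 in UGE, 872, 3521 and 3392 in Sca-1Hi, 1273, 726, 2779 and 3433 in Sca-1Lo, and 1595, 1096, 1593 and 2318 in Sca-1Neg. UGE was clear of all adult arrays. Gadd45g differed by -3.26 ± 0.55 against Sca-1Neg (adjusted p = 0.000769), -3.71 ± 0.59 against Sca-1Hi (adjusted p = 0.000505) and -3.37 ± 0.55 against Sca-1Lo (adjusted p = 0.000656).

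Of the immediate early response genes, Ier3, a survival factor, had signals of 170, 262 and 221 in UGE, 1813, 6414 and 4450 in Sca-1Hi, 2064, 896, 8111 and 6125 in Sca-1Lo, and 1113, 622, 2361 and 1498 in Sca-1Neg. UGE lay below all adult arrays, and the 4 arrays that were highest for Atf3 were highest here too. Ier3 differed by -2.55 ± 0.69 against Sca-1Neg (adjusted p = 0.0144), -4.12 ± 0.74 against Sca-1Hi (adjusted p = 0.00115) and -3.85 ± 0.69 against Sca-1Lo (adjusted p = 0.00122). Ier2 had signals of 1147, 2333 and 1575 in UGE, 3701, 7716 and 6715 in Sca-1Hi, 3941, 2735, 9421 and 8763 in Sca-1Lo, and 1812, 1411, 3521 and 2516 in Sca-1Neg. It overlapped Sca-1Neg and lay below Sca-1Hi and Sca-1Lo. Ier2 differed by -1.84 ± 0.50 against Sca-1Hi (adjusted p = 0.0159) and -1.76 ± 0.47 against Sca-1Lo (adjusted p = 0.0157). Ier5 ran from 1327 to 2152 in UGE, 1228 to 2579 in Sca-1Hi, 357 to 1420 in Sca-1Lo and 364 to 1382 in Sca-1Neg and was not called.

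Heat shock proteins did not move as one. Hspa1a, the inducible Hsp70, had signals of 202, 383 and 269 in UGE, 6945, 11734 and 11909 in Sca-1Hi, 7831, 3355, 10814 and 10321 in Sca-1Lo, and 5748, 4718, 6301 and 10221 in Sca-1Neg. The highest UGE array was far below the lowest adult array, Sca-1Lo replicate 2. Hspa1a differed by -4.55 ± 0.42 against Sca-1Neg (adjusted p = 5.47e-06), -5.17 ± 0.45 against Sca-1Hi (adjusted p = 3.71e-06) and -4.74 ± 0.42 against Sca-1Lo (adjusted p = 3.76e-06). Hspa1b, its near copy, had signals of 2065, 3144 and 2703 in UGE, 11593, 16192 and 16018 in Sca-1Hi, 13853, 6185, 14429 and 13775 in Sca-1Lo, and 7816, 6374, 9536 and 10458 in Sca-1Neg. The separation was the same in direction and smaller in size, and 2 other Hspa1b probe sets differed from Sca-1Neg by -3.31 and -2.98. Hspa1b differed by -1.69 ± 0.32 against Sca-1Neg (adjusted p = 0.0017), -2.47 ± 0.34 against Sca-1Hi (adjusted p = 0.000171) and -2.14 ± 0.32 against Sca-1Lo (adjusted p = 0.00033). Hspb1, the small chaperone Hsp27, had signals of 2190, 3189 and 1755 in UGE, 8641, 9683 and 10322 in Sca-1Hi, 7814, 4330, 9780 and 9928 in Sca-1Lo, and 3182, 2260, 7780 and 7335 in Sca-1Neg. Sca-1Neg replicates 1 and 2 fell within the UGE range. Hspb1 differed by -2.05 ± 0.47 against Sca-1Hi (adjusted p = 0.00553) and -1.72 ± 0.44 against Sca-1Lo (adjusted p = 0.0117). Hsph1, the Hsp110 exchange factor, ran from 1653 to 2180 in UGE, 735 to 1457 in Sca-1Hi, 958 to 2232 in Sca-1Lo and 791 to 2372 in Sca-1Neg. Dnajb1, the Hsp40 partner of Hsp70, ran from 1906 to 3182 in UGE and 1171 to 8290 over the adult arrays. Neither was called, though a weaker Hsph1 probe set was called higher in UGE against Sca-1Hi (1.10) and a weaker Dnajb1 probe set was called lower in UGE against Sca-1Neg (-1.52), Sca-1Hi (-2.85) and Sca-1Lo (-2.41).

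Rhob and Sgk1 were lower in UGE than in every adult population. Rhob, a small GTPase of the endosome, had signals of 641, 642 and 661 in UGE, 1821, 2338 and 2034 in Sca-1Hi, 1681, 1053, 1925 and 1996 in Sca-1Lo, and 1672, 1225, 991 and 2221 in Sca-1Neg. The 3 UGE arrays were nearly equal and lay below all adult arrays. Rhob differed by -1.17 ± 0.30 against Sca-1Neg (adjusted p = 0.0111), -1.66 ± 0.32 against Sca-1Hi (adjusted p = 0.00202) and -1.32 ± 0.30 against Sca-1Lo (adjusted p = 0.00635). Sgk1, a kinase induced by serum and glucocorticoid, had signals of 459, 531 and 523 in UGE, 5495, 8715 and 7477 in Sca-1Hi, 6756, 4321, 5918 and 4355 in Sca-1Lo, and 6352, 4146, 5924 and 6819 in Sca-1Neg. Its adult arrays all lay between 4146 and 8715. Sgk1 differed by -3.50 ± 0.26 against Sca-1Neg (adjusted p = 1.02e-06), -3.82 ± 0.28 against Sca-1Hi (adjusted p = 1.15e-06) and -3.38 ± 0.26 against Sca-1Lo (adjusted p = 1.35e-06), the smallest adjusted p of the 43 genes in each comparison.

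The 43 genes have 37 further probe sets that were tested. Their call differed from that of the gene's representative for 10 against Sca-1Neg, 11 against Sca-1Hi and 13 against Sca-1Lo. The opposite call was made for 1 of these against Sca-1Neg and 1 against Sca-1Lo, both the Nr4a3 probe set named above, and another Ier5 probe set was called higher in UGE than in Sca-1Neg and Sca-1Lo (1.58 against Sca-1Lo). For Fosl1, Fosl2, Jund, Cebpb, Tob1, Gadd45b and Nr4a3, a probe set of lower signal than the representative was called in no comparison. That of Fosl1 differed by -0.59 against Sca-1Hi and -0.70 against Sca-1Lo, and that of Jund by -0.28 against Sca-1Hi. In the comparisons among adult cells the calls of the further probe sets did not differ from their representatives.

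Of the 93 calls, 73 were made whichever array was left out, and 20 were lost without at least 1 array, with adjusted p-values of 0.0504 to 0.148. Against Sca-1Neg these were Mafk (8 arrays, adjusted p up to 0.112), Klf4 (4 arrays, up to 0.0877) and Gadd45b (5 arrays, up to 0.074). Against Sca-1Lo they were Fosl1 (without UGE replicate 3), Dusp2 (without UGE replicate 2 or 3), Btg2 (4 arrays), Gadd45b (6 arrays), Ier2 (without UGE replicate 1 or 3) and Hspb1 (without UGE replicate 3). Against Sca-1Hi they were Fosl1, Fosl2, Jund, Egr2, Nr4a3, Klf6, Cebpb, Dusp2, Btg2, Gadd45a and Ier2. No member was higher in UGE than in Sca-1Hi without UGE replicate 3, 1 was without UGE replicate 2 or Sca-1Hi replicate 1 or 2, and 24 were lower without Sca-1Hi replicate 2 or 3. Where the call of Fosl2 was lost, its adjusted p (limma) was 0.0732 to 0.0809. Against Sca-1Lo, 1 gene was higher without UGE replicate 2 or 3.

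In the main fit, which has no block, no gene of the 43 was called in any comparison among the adult populations. Some other settings, with or without a block, did call genes, as given here and below. For the blocks and single arrays left out no share of all genes is given, so their counts are not results about the 43 genes. Against Sca-1Neg, 38 of 43 were higher by value in Sca-1Hi, with a median of 0.84 beside 0.03 over all genes, and 34 in Sca-1Lo, with a median of 0.48 beside 0.08. Of all genes tested, 6.11% were called higher and 5.19% lower in Sca-1Hi, and 1.64% higher and 0.799% lower in Sca-1Lo. At an unadjusted p under 0.05, 14 genes differed in Sca-1Hi, where 25.9% of all genes did, and 7 in Sca-1Lo, where 14.6% did, a share close to that of the 7 genes. Sca-1Hi lay above Sca-1Lo by value for 35 genes, with a median of 0.33 beside -0.04 over all genes. There 1 gene (Ier5) had an unadjusted p under 0.05, where 7.99% of all genes did. Of all genes, 0.0817% were called higher and 0.0175% lower. The lowest adjusted p against Sca-1Neg in Sca-1Hi was that of Junb, 0.0639, with a difference of 1.5, and all 3 Sca-1Hi arrays exceeded all 4 Sca-1Neg arrays. The study, with its own filters and test, lists Junb and Klf4 as raised in Sca-1Hi and places Btg2 in its cluster of Sca-1Hi genes. Blocking on the replicate number gave 6 genes higher in Sca-1Hi and 0 in Sca-1Lo. A fit of this kind on the Sca-1Lo and Sca-1Neg arrays alone, whose same-numbered samples deviated together, gave 1 gene higher in Sca-1Lo. Replicate 2 of Sca-1Hi has number 3 in the study, but replicate 2 of Sca-1Lo and of Sca-1Neg has number 2. Its correlation was -0.458 with the former and -0.31 with the latter. The block that includes Sca-1Hi thus joined unlike arrays. With the low and high study numbers described below as a block, 5 were higher in Sca-1Hi and 2 in Sca-1Lo. Without Sca-1Lo replicate 2, 5 were higher in Sca-1Hi. In Sca-1Lo 1 gene was higher without Sca-1Lo replicate 2, and 1 without Sca-1Neg replicate 3. Without Sca-1Neg replicate 3, 2 genes were higher and 1 lower in Sca-1Hi and 1 was lower in Sca-1Lo, and 1 was higher in Sca-1Hi without Sca-1Hi replicate 1 or Sca-1Lo replicate 3.

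**Figure D4:**
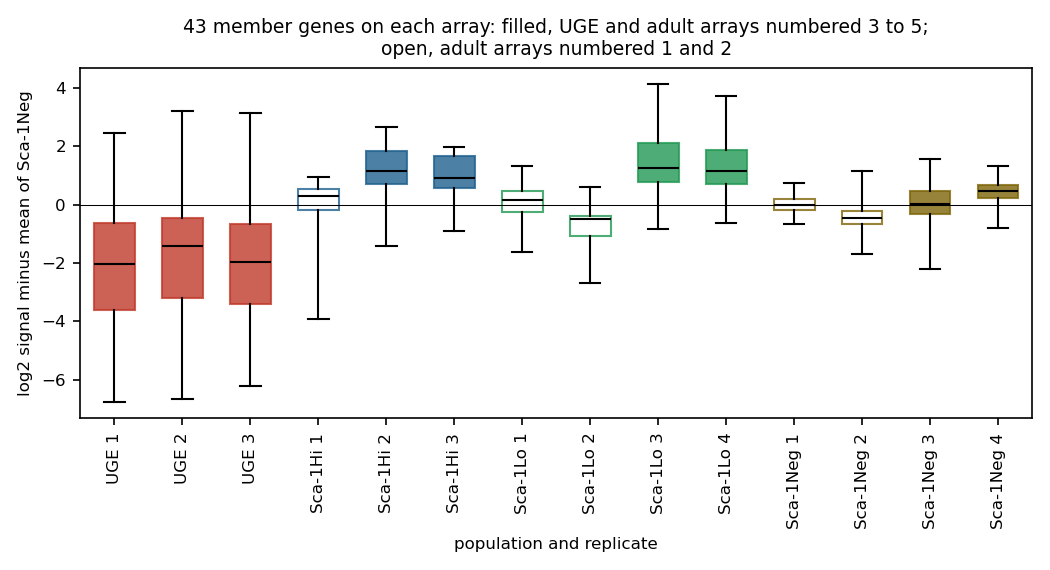
Log2 signal of the 43 genes minus their Sca-1Neg means, as 1 box per array (line, median; box, middle 50% of genes; whiskers, lowest and highest gene). Filled boxes are UGE and adult arrays numbered 3 to 5, open boxes adult arrays numbered 1 and 2; medians lie between -2.02 and -1.42 in UGE and between -0.48 and 1.26 in the adult arrays.

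The adult arrays were not alike within a population. In a table of the study the adult arrays carry numbers, 1 and 2 or 3 to 5, which were joined to the arrays by identical values over 1050 probe sets. What the numbers stand for is not stated. Numbers 1 and 4 recur in all 3 adult populations, and 2 and 5 in Sca-1Lo and Sca-1Neg. Sca-1Lo and Sca-1Neg arrays of equal replicate number also share the study number. A pairing of all 3 populations by single study number was not fitted. Numbers 1 and 2 belong to 1 Sca-1Hi, 2 Sca-1Lo and 2 Sca-1Neg arrays, and numbers 3 to 5 to 2 arrays of each population. The median of the 43 genes, set against the Sca-1Neg mean, was 1.14 and 0.93 on the high-numbered and 0.29 on the low-numbered Sca-1Hi arrays. It was 1.26 and 1.14 on the high-numbered and 0.14 and -0.48 on the low-numbered Sca-1Lo arrays. In Sca-1Neg it was 0.03 and 0.45 on the high-numbered and -0.03 and -0.46 on the low-numbered arrays. Sca-1Lo replicate 3 was the highest of the 11 adult arrays for 21 of the 43 genes, and Sca-1Lo replicate 2 the lowest for 22, followed by Sca-1Neg replicate 2 with 13.

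The gap between the numbers was widest in Sca-1Lo. There 41 of 43 genes averaged higher on the high-numbered arrays, with a median difference of 1.47 beside 0.10 over all genes, and both high-numbered arrays exceeded both low-numbered ones for 39, where 39.8% of all genes did so. In Sca-1Hi, with a single low-numbered array, 40 averaged higher (median 0.83, all genes 0.03) and 39 were above it on both high-numbered arrays, as 40.4% of all genes were. In Sca-1Neg 34 averaged higher (median 0.50, all genes 0.39) and 20 were higher on both high-numbered arrays than on either low-numbered one, close to the share of all genes (7377 of 17136). These are descriptions with no test. In Sca-1Lo 15 genes differed by over 2 log2 units, among them Nr4a2 (4.30), Nr4a3 (3.78), Egr2 (3.70), Maff (3.46) and Fosb (2.87). By contrast Egr3, Klf2, Tob1 and Sgk1 differed by less than 0.5 log2 units, with 0.49 for Klf2 and -0.09 for Sgk1. Some other measures moved with the numbers. The Gapdh 3' to 5' ratio in log2 was 3.10 and 3.22 on the high-numbered and 2.54 and 1.98 on the low-numbered Sca-1Lo arrays, and 2.75 and 2.69 against 1.66 and 1.84 in Sca-1Neg, but 3.07 and 3.48 against 3.08 in Sca-1Hi. The ratio of Actb did not follow the numbers in this way, with 1.59 and 1.71 on the high-numbered and 2.77 on the low-numbered Sca-1Hi arrays, 1.91 and 1.72 against 2.27 and 1.80 in Sca-1Lo, and 2.11 and 1.21 against 1.17 and 1.48 in Sca-1Neg. The summed signal of 7 fibroblast genes was 44389 and 58519 on the high-numbered and 14028 and 8511 on the low-numbered Sca-1Lo arrays. In Sca-1Hi it was 24325 and 48110 against 5278. On the Sca-1Lo arrays that of 10 endothelial genes was 11512 and 12704 against 5481 and 5617. That of 6 basal genes was 27667 and 26797 against 14874 and 8772. The sums of 6 luminal and 12 leukocyte genes went the other way. They were 42543 and 42394 against 68495 and 57346, and 1101 and 964 against 1894 and 1499. That of muscle and pericyte genes did not split. The part of these cell types in the gap was not tested.

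**Figure D5:**
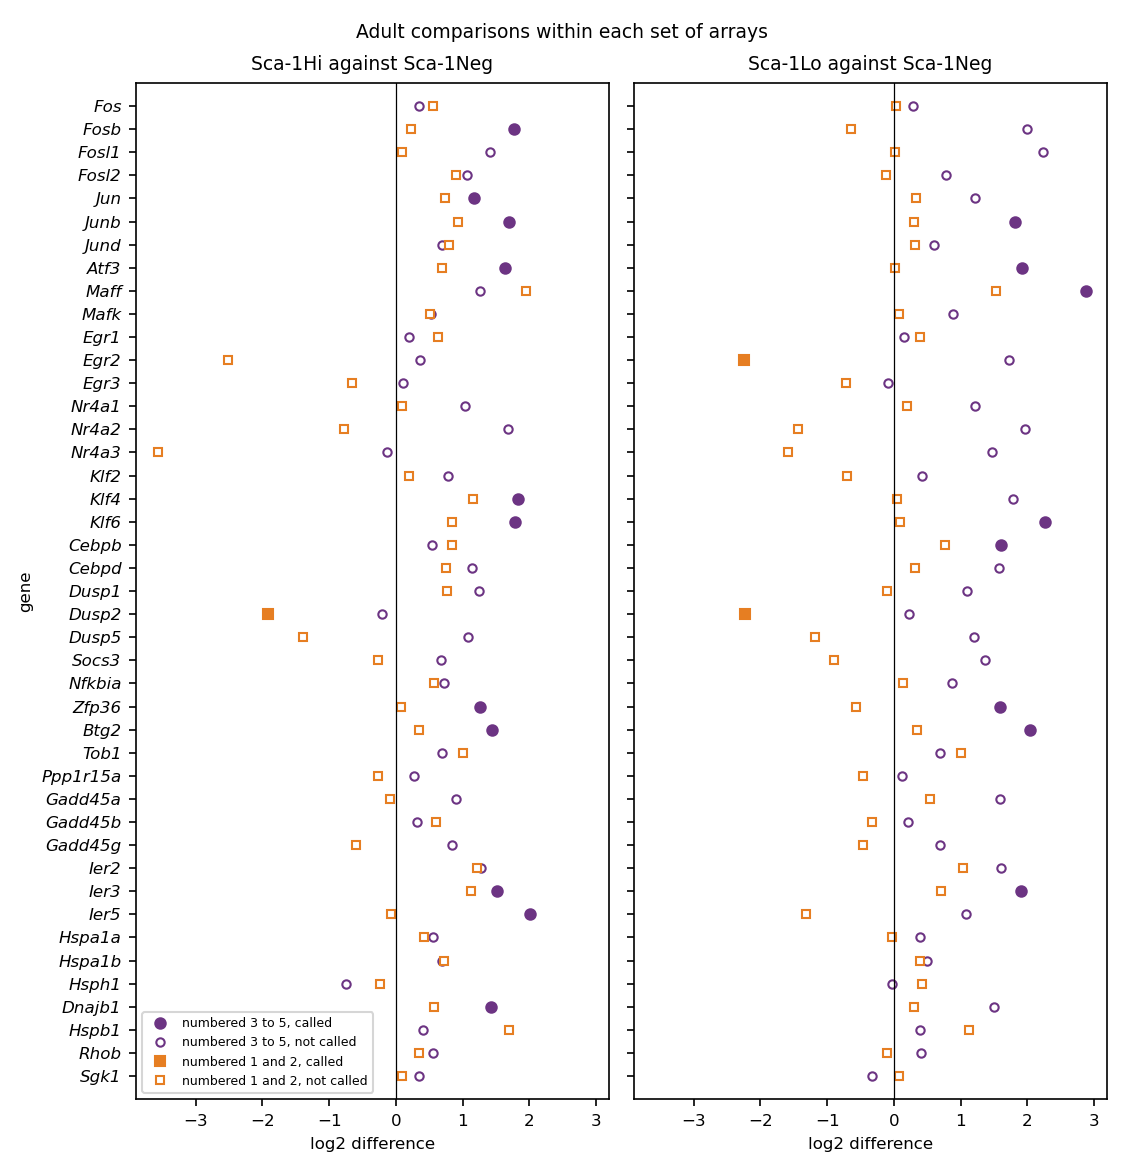
Log2 difference of Sca-1Hi (left) and Sca-1Lo (right) from Sca-1Neg for the 43 genes, within the adult arrays numbered 3 to 5 (circles) and within those numbered 1 and 2 (squares), filled where called. In the right panel nearly all circles lie right of 0 and the squares lie on both sides. Filled circles number 11 on the left and 8 on the right, from fits chosen after seeing the data.

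Within the high-numbered arrays, 11 of the 43 genes were higher in Sca-1Hi than in Sca-1Neg, where 3.98% of all genes were called higher, and 8 were higher in Sca-1Lo, where 1.69% of all genes were. Junb, Atf3, Klf6, Zfp36, Btg2 and Ier3 were called in both, Fosb, Jun, Klf4, Ier5 and Dnajb1 in Sca-1Hi, and Maff and Cebpb in Sca-1Lo. Klf6 differed by 1.79 in Sca-1Hi (adjusted p = 0.0247) and 2.27 in Sca-1Lo (adjusted p = 0.0248), and Btg2 by 1.44 (adjusted p = 0.0235) and 2.04 (adjusted p = 0.0181). The median over the 43 genes was 0.85 in Sca-1Hi and 1.20 in Sca-1Lo. Within the low-numbered arrays no gene was higher, and Dusp2 was lower in Sca-1Hi (-1.91, adjusted p = 0.0298) and Sca-1Lo (-2.23, adjusted p = 0.0115) and Egr2 in Sca-1Lo (-2.25, adjusted p = 0.049), where 3.46% and 2.53% of all genes were called lower. The medians were 0.51 in Sca-1Hi and 0.05 in Sca-1Lo. The Sca-1Neg arrays that serve as reference differed between the sets. Their summed leukocyte signal was 21145 and 47678 in the low set and 1374 and 7405 in the high set. The part of leukocytes in these differences was not tested. Each population has 2 arrays in a set, except Sca-1Hi with 1 in the low set, whose spread is taken to be that of the others. The fits within sets were chosen after seeing the data. The counts of 11 and 8 beside the shares of all genes are thus descriptions and no test of the 43 genes. Whether the 2 sets differ was not tested.

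The low level in UGE was present against either set. Against the low-numbered arrays 28 genes were lower than in Sca-1Neg, 24 than in the single low-numbered Sca-1Hi array and 27 than in Sca-1Lo, where 16.7%, 8.53% and 15.7% of all genes were. Against the high-numbered arrays 31, 38 and 38 genes were lower, where 12.7%, 13.2% and 11.8% of all genes were. Hsph1 was higher in UGE than in the low-numbered Sca-1Neg arrays (1.17) and than in the single low-numbered Sca-1Hi array (1.4), and Ier5 higher than in the low-numbered Sca-1Lo arrays (1.66).

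Genes around this group were counted from 4 lists, also chosen with earlier results of these data known. Of 39 other early response genes tested, 11 were lower and 5 higher in UGE than in Sca-1Neg, 15 lower and 1 higher than in Sca-1Hi, and 13 lower and 2 higher than in Sca-1Lo. The shares lower are 28.2%, 38.5% and 33.3%, beside 12.8%, 12.0% and 12.1% of all genes. Ccn1, a matrix protein gene induced by serum, differed by -4.39 ± 0.76 from Sca-1Neg (adjusted p = 0.000886), with signals of 54.4 to 126 in UGE and 839 to 9638 over the adult arrays. Its relative Ccn2 differed by -3.94 ± 0.75 (adjusted p = 0.00173), Rgs1, a regulator of G protein signalling in lymphocytes, by -5.15 ± 0.90 (adjusted p = 0.00094) and Gem, a small GTPase, by -3.52 ± 0.85 (adjusted p = 0.0077). Rgs1 (7.81 to 18.9) and Gem (5.83 to 16.1) lay below the signal minimum of 20 on every UGE array. The size of their differences is thus known only as a bound. Against Sca-1Hi, Arc, an activity-regulated gene of neurons, differed by -5.52 ± 1.14 (adjusted p = 0.00309) and Sik1, a kinase induced by cyclic AMP, by -3.99 ± 0.93 (adjusted p = 0.00644). Of this list 8 (20.5%, beside 6.11% of all genes) were called higher and 1 lower in Sca-1Hi than in Sca-1Neg, with a median difference of 0.78 beside 0.84 for the 43 genes. Among the 8 were Arc (3.89), Sik1 (3.15) and the Kruppel-like factor Klf5 (2.73), while Rgs1 was lower (-4.55). None was called in Sca-1Lo against Sca-1Neg.

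Of 18 genes of the MAP kinase pathway and the serum response, 3 were higher and 1 lower in UGE than in Sca-1Neg, 5 higher and 2 lower than in Sca-1Hi and 4 higher and 1 lower than in Sca-1Lo. The share higher than in Sca-1Neg, 16.7%, is near the 16.3% of all genes, and those higher than in Sca-1Hi and Sca-1Lo were 27.8% and 22.2%, beside 15.8% and 13.4%. Map2k6, a kinase upstream of p38, was higher by 1.82 ± 0.34 (adjusted p = 0.00166) and Creb1, which encodes CREB, by 1.43 ± 0.42 (adjusted p = 0.0226) against Sca-1Neg. Elk3, a partner of the serum response factor, was lower in UGE than in Sca-1Hi (-1.71, adjusted p = 0.005) and higher in Sca-1Hi than in Sca-1Neg (2.08, adjusted p = 0.00296). Mrtfb, a coactivator of that factor, was also higher in Sca-1Hi than in Sca-1Neg (1.03, adjusted p = 0.0426).

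Of 19 NF-kB genes, 8 were lower and 1 higher in UGE than in Sca-1Neg, 6 lower than in Sca-1Hi and 8 lower than in Sca-1Lo. The shares lower are 42.1%, 31.6% and 42.1%, beside 12.8%, 12.0% and 12.1% of all genes. The chemokine and cytokine genes Ccl3 (-7.00), Cxcl2 (-6.82), Il1b (-4.13) and Ccl4 (-3.73) led against Sca-1Neg, and the same genes were lower in Sca-1Hi than in Sca-1Neg (-5.85, -4.26, -3.54 and -3.44), where 5 of the list were. These are also genes of leukocytes, whose summed signal was up to 47678 in Sca-1Neg. Cxcl1 (-2.45), the inhibitor of apoptosis Birc3 (-2.35) and Nfkbiz (-3.01), a nuclear regulator of NF-kB, were lower than in Sca-1Hi. Of 18 further heat shock genes, 4 were higher and 1 lower in UGE than in Sca-1Neg, 7 higher and 2 lower than in Sca-1Hi, and 3 higher and 2 lower than in Sca-1Lo. The shares higher are 22.2%, 38.9% and 16.7%, beside 16.3%, 15.8% and 13.4% of all genes. Cryab, the small chaperone of muscle and lens, was lower in UGE than in Sca-1Neg (-5.21 ± 0.48, adjusted p = 6.09e-06), and Bag3, an Hsp70 cochaperone, was lower than in Sca-1Hi (-1.82) and Sca-1Lo (-1.67). Hspa4, of the Hsp110 family, was higher in UGE in all 3 comparisons (1.41, 1.97 and 1.42 against Sca-1Neg, Sca-1Hi and Sca-1Lo), and the mitochondrial chaperone Hspd1 was higher than in Sca-1Neg (1.12) and Sca-1Lo (1.17).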

How the data were processed

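RNA of 14 samples was hybridised to Affymetrix mouse whole-genome arrays after two-cycle labelling. The authors computed a signal intensity for each of 45101 probe sets with PLIER in ArrayAssist, and these deposited intensities, on a linear scale, were used as they stand. The step that makes arrays comparable is not given in the sources used here. Of the probe sets, 34945 are paired with 1 gene, 932 with several and 9160 with none in the platform annotation, beside 64 array controls, and genes were named only from the first kind. Some named genes had no such probe set and were not analysed here. Log2 signals of 41094 probe sets above 20 on at least 1 array were fitted with limma 3.58.1 (R 4.3.3) as 4 group means, with Benjamini-Hochberg adjustment over all of them. Calls were made where the difference exceeded 0.81 log2 units with an adjusted p under 0.05. The number of arrays limits the precision, and nothing in the labels says that replicates are separate litters or mice, so p-values measure the spread between these samples. Sequence counts used Python 3.11.15 with pandas 2.3.3, and figures were drawn in matplotlib 3.10.9. The model was tested on simulated data.

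Members called in at least 1 of the 6 comparisons are given with every value, the others by their range, and of each related list up to 4 genes per comparison with the largest change are named. The members and lists were chosen with earlier results of these data known. Samples that share a replicate number deviated together in 12 of 19 pairs (correlation over 0.1, range -0.46 to 0.57), so the numbers were not taken to pair the samples, except that all 4 Sca-1Lo and Sca-1Neg pairs passed. Alternatives were other filters, quantile normalization, an added constant of 16, scaling each array by its 75th percentile, fits of 2 groups, the methods' t-test, no fold minimum, the mean of a gene's probe sets, blocks for replicate number or for low and high study numbers, and each array left out. The t-test was adjusted over all probe sets tested, whereas the study first narrowed its transcripts to variable and significant ones, so its calls can differ. Fits within the adult arrays of low or of high study number, and a block on the Sca-1Lo and Sca-1Neg arrays alone, were chosen after seeing the data.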

Additional observations from a re-analysis of the deposited data

Results flagged for a closer look

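In 86 groups of 4 adult arrays, 1 array stood apart from the other 3 in 2 cases, where chance alone flags about 1 group in 20. Junb had a signal of 1183 on Sca-1Neg replicate 2, against 1850 to 1924 on the other Sca-1Neg arrays. Hspa1b had a signal of 6185 on Sca-1Lo replicate 2, against 13775 to 14429 on the other Sca-1Lo arrays.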

How the results depend on the processing

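No call of the 43 genes changed direction under any alternative run. Of the 93 calls, all were also made with no filter, with the stricter filter, after centring on the 75th percentile, in fits of 2 groups and with no fold minimum. With 16 added 3 were lost (Fosl1, Egr2 and Nr4a3 against Sca-1Hi), with quantile normalization 2 and with the mean of a gene's probe sets 3. With the methods' t-test, adjusted here over all probe sets tested, 20 were lost. Using only the adult arrays with low study numbers 13 were lost, and with high numbers 1. The counts of members lower in UGE ranged from 21 to 25 against Sca-1Neg, 24 to 35 against Sca-1Hi and 26 to 36 against Sca-1Lo over the arrays left out, and those higher from 1 to 1, 0 to 2 and 1 to 2. With only low-numbered or only high-numbered arrays, 2 members were higher than in Sca-1Neg, and with high-numbered arrays 1 was higher than in Sca-1Lo.

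The counts among adult populations, 0 as reported, depended on the setting. Of all 17136 genes tested, 1047 were higher in Sca-1Hi than in Sca-1Neg in the main fit. These were 1188 with quantile normalization and 1157 with centring, so the 3 and 4 members given next lie near the shares of all genes. In Sca-1Lo 390 genes were higher with quantile normalization, beside 281 in the main fit. For the blocks, the fit of 2 groups and single arrays left out, no share of all genes is given. Those counts are thus not read as results about the members. Members higher in Sca-1Hi than in Sca-1Neg were 3 with quantile normalization, 4 with centring on the 75th percentile, 2 in the fit of 2 groups, 5 with low and high study numbers as a block, 11 within the high-numbered arrays and 0 to 5 with an array left out, and members lower were 1 within the low-numbered arrays and 0 to 1 with an array left out. Members higher in Sca-1Lo than in Sca-1Neg were 1 with quantile normalization, 2 with the study numbers as a block, 8 within the high-numbered arrays and 0 to 1 with an array left out, and members lower were 2 within the low-numbered arrays and 0 to 1 with an array left out. With the replicate number as a block, 6 members were higher in Sca-1Hi than in Sca-1Neg, 1 was higher in Sca-1Lo in the fit of the Sca-1Lo and Sca-1Neg arrays alone, and 2 of the 93 calls in UGE were lost (Fosl1 against Sca-1Hi and Gadd45b against Sca-1Lo, adjusted p = 0.0543 each, limma). For Sca-1Hi replicate 2 this block joined arrays of unlike study number. The cause of the differences between settings was not tested. Signals at or below 20, as of Fosb, Cxcl2, Rgs1 and Gem in UGE, give only bounds.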
